A study of Mus musculus with 4 samples.

Results

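Classical monocytes of the mouse heart were described across 2 libraries of heart leukocytes. Members were chosen by raw UMIs (unique molecular identifiers, each standing for 1 captured transcript) in barcodes that had 200 genes or more and less than 10% of UMIs from mitochondrial genes. A member had at least 5 UMIs of Ly6c2, Chil3 and Vcan together and at least 1 of Csf1r. It had at most 9 of C1qa, C1qb and C1qc, at most 2 of the neutrophil genes Csf3r and Retnlg and at most 1 of the nonclassical monocyte genes Ace, Ear2, Treml4 and Cd300e. It also had at most 1 of Cd3d, Cd3e and Cd3g and at most 4 of Cd79a, Cd79b and Ms4a1, which mark T and B cells. These bounds left 127 cells of 6836 kept barcodes. Of these, 74 of 4278 came from the anti-CD40 library and 53 of 2558 from the isotype library.

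The anti-CD40 library was made from C57BL6J mice given an agonist antibody against CD40, and the isotype library from C57BL6J mice given rat IgG. The hearts of 4 mice were pooled for each library after perfusion, removal of the atria and enzymatic digestion. Live cells positive for CD45, the common leukocyte antigen, were sorted, per the sample labels, although the series description names DRAQ5, a DNA dye, in place of CD45. The labels used here give no dose, time, age or sex. Genes and antibody tags were read from the same cells (CITE-seq). With 1 library per group there was no test between conditions: the intervals given are exact 95% ones that cover counting error alone, and treatment and preparation cannot be told apart.

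Classical monocytes leave the bone marrow through the chemokine receptor CCR2, circulate with high surface Ly-6C, and enter inflamed tissue, where they can become macrophages or antigen-presenting cells. In the heart they are a source of macrophages after injury. CD40 is a receptor of the tumour necrosis factor family on B cells, dendritic cells and macrophages, engaged by CD40 ligand on activated T cells. Its engagement on antigen-presenting cells leads to interleukin-12 production, and interleukin-12 drives interferon-gamma release from T and NK cells. Interferon-gamma acts on genes with GAS and ISRE elements in their promoters.

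The members were sequenced to a similar depth in both libraries. They held 970053 UMIs in the anti-CD40 library (median 11048 per cell, 2717 to 54909) and 632939 UMIs in the isotype library (median 10685, 4270 to 23731). Levels are given as CPM, the UMIs of a gene summed over the members for each 1000000 of their UMIs. The libraries shared 13 barcodes, and 1 member carried one of them.

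The genes of the gate chose the members, so their values describe the selection and support nothing else. Ly6c2, which encodes the surface protein Ly-6C, had 2 to 194 UMIs per cell (median 24) in anti-CD40 members and 1 to 86 (median 8) in isotype members. Chil3, a chitinase-like protein of classical monocytes, had a median of 11.5 UMIs in anti-CD40 members, 50 of which carried it, and of 0 in isotype members, 26 of which carried it. Vcan, the matrix proteoglycan versican, was found in 36 anti-CD40 and 17 isotype members. C1qa, C1qb and C1qc, the complement subunits of tissue macrophages, together had a median of 3 UMIs in anti-CD40 and 1 in isotype members. That amounted to 285 CPM in anti-CD40 and 109 CPM in isotype members. Just inside the bound, 7 anti-CD40 and 4 isotype members had 5 or 6 UMIs of the 3 markers, and just outside it 7 anti-CD40 and 2 isotype barcodes had 3 or 4. The C1q bound fell less evenly. Barcodes that met every other bound but had 13 or more C1q UMIs numbered 173 in the anti-CD40 and 8 in the isotype library. Barcodes with both marker and C1q transcripts, which stayed outside, were thus mostly from the anti-CD40 library. They fall into the gate of C1q-rich macrophages used below for comparison, which set no bound on the 3 markers.

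Most classical monocyte genes that the gate did not use were higher in members than in macrophages, when summed over the cells. Of 24 other classical monocyte genes, 23 in the anti-CD40 library and 22 in the isotype library had a higher level in members than in C1q-rich macrophages (a gate with 10 or more C1q UMIs, 1973 anti-CD40 and 655 isotype cells). At least 2-fold higher were 13 of them in the anti-CD40 library and 21 in the isotype library. This macrophage gate also holds cells with monocyte markers: Ly6c2 was found in 27.4% of its anti-CD40 and 2.90% of its isotype cells. The part of those cells in the comparison was not tested. Ccr2 was at 531 CPM in anti-CD40 members and 295 CPM in anti-CD40 macrophages, and at 992 CPM in isotype members and 183 CPM in isotype macrophages. Itgam, the integrin chain CD11b, was at 229.9 CPM in anti-CD40 members and 192 CPM in anti-CD40 macrophages. Hp, haptoglobin, was at 666 CPM in anti-CD40 members and 16.9 CPM in anti-CD40 macrophages, and at 480 CPM in isotype members and 6.46 CPM in isotype macrophages. Mgst1, a glutathione transferase, was at 338 CPM in anti-CD40 members and 14.1 CPM in anti-CD40 macrophages, and at 311 CPM in isotype members and 5.42 CPM in isotype macrophages. The exceptions were Cd14, the lipopolysaccharide co-receptor, in both libraries, and F13a1, coagulation factor XIII, in the isotype library. Cd14 was at 143 CPM in anti-CD40 members and 158 CPM in anti-CD40 macrophages, and at 131 CPM in isotype members and 592 CPM in isotype macrophages. F13a1 was at 523 CPM in isotype members and 1009 CPM in isotype macrophages. Against the other gates the genes went both ways. Hp was at 2487 CPM in anti-CD40 and 1376 CPM in isotype neutrophils, above members. Gsr was at 195 CPM in anti-CD40 members and 407 CPM in anti-CD40 nonclassical monocytes. Plac8 was at 3557 CPM in anti-CD40 members and 2579 CPM in anti-CD40 nonclassical monocytes.

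**Figure D1:**
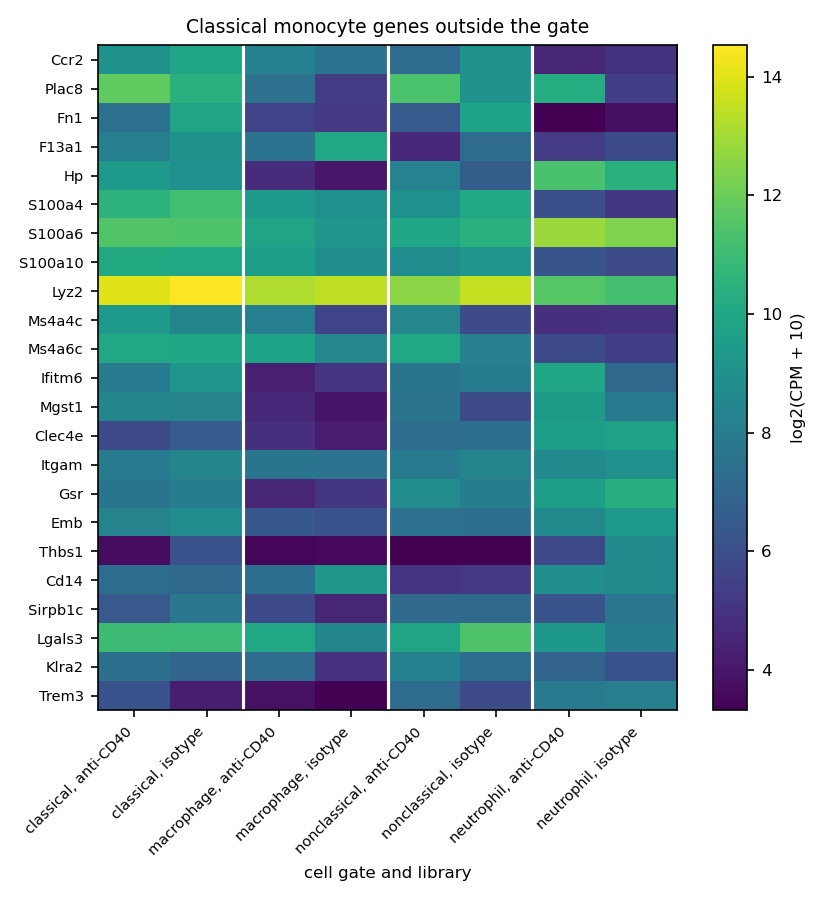
Level of 23 of the 24 classical monocyte genes outside the gate, as log2(CPM + 10), one row per gene, in members (classical), C1q-rich macrophages, nonclassical monocytes and neutrophils, anti-CD40 left of isotype in each pair. Hp and Mgst1 stand above macrophages in both libraries, while both are also high in neutrophils.

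Some members carried transcripts of other cells. NK cell markers (10 genes, among them Ncr1, Nkg7 and Gzma) reached 64 to 970 UMIs in 4 anti-CD40 members and 22 to 176 UMIs in 6 isotype members, against at most 8 UMIs in other anti-CD40 members and 2 in other isotype members. Their median Lyz2 count was 0.5 UMIs in the anti-CD40 and 3.5 in the isotype library, against 191 and 300.0 in the trimmed anti-CD40 and isotype members defined next. Siglech, a receptor of plasmacytoid dendritic cells, reached 6 to 11 UMIs in 2 isotype members and was at 0 in all other members. The neutrophil granule genes Camp, Ngp and Ltf together had 251 UMIs in 1 anti-CD40 member and at most 1 in any other. These 5 anti-CD40 and 8 isotype cells were kept, since they met the rule. Values without them, for 69 anti-CD40 and 45 isotype members, are also given for several genes, lists and tags, and the group is called the trimmed members; the trimming was chosen after the values were seen. Of 13 B cell markers, 4 had a UMI in anti-CD40 members (145 CPM in sum, with Igkc and Ms4a1 at 0) and 12 in isotype members (477 CPM, with Cr2 at 0). B cell RNA was also higher in other isotype cells: Igkc, the kappa light chain, was at 2.30 CPM in anti-CD40 macrophages and 136 CPM in isotype macrophages.

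Classical monocytes made up 1.73% of kept barcodes (74 of 4278, 1.36 to 2.17) in the anti-CD40 library and 2.07% (53 of 2558, 1.56 to 2.70) in the isotype library, and these intervals overlap. With a C1q bound of 3 UMIs in place of 9, the shares were 0.958% (0.689 to 1.30) in the anti-CD40 and 1.95% (1.45 to 2.57) in the isotype library. These intervals do not overlap. That bound kept 41 anti-CD40 and 50 isotype members. C1q RNA was also higher in anti-CD40 cells of other gates. It was at 823 CPM in anti-CD40 and 322 CPM in isotype neutrophils. In nonclassical monocytes it was at 528 CPM in the anti-CD40 and 171 CPM in the isotype library. The part of this RNA in the shares was not tested. Among the classical, nonclassical and macrophage gates together classical monocytes were 3.55% (74 of 2085, 2.80 to 4.44) in the anti-CD40 library. They were 7.08% (53 of 749, 5.35 to 9.15) in the isotype library, and the intervals do not overlap. Macrophages themselves were 46.1% of anti-CD40 and 25.6% of isotype barcodes. The part of the cell sort in these shares was not tested.

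The next comparison asked which transcripts of heart monocytes differed with CD40 agonist treatment. Genes with at least 30 UMIs over both libraries were counted as measured, and a gene was called at 2-fold or more on a log2 ratio computed with a prior of 10 CPM added to each level. The prior pulls the ratios of sparse genes towards 0, and folds in the text are plain ratios of CPM. Of 5955 measured genes, 255 (4.28%) were called higher in anti-CD40 monocytes and 295 (4.95%) were called lower, with a median log2 ratio of -0.08. The counts of each list below stand beside these shares. The 15 highest named genes included the interferon-inducible GTPases Iigp1, Gbp2, Gbp4, Gbp5 and Gbp8 and the chemokine Cxcl9. The 12 lowest included Hpgd, Trf, Hes1, Fosb and Fn1.

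Interferon-gamma response genes were the list with the most genes called higher. Of 33 measured genes on a list of 37, 28 were called higher and 0 lower, beside 4.28% and 4.95% of all measured genes, and the median log2 ratio was 2.52 (2.69 with the 4 genes at 0 in isotype members set at their bounds). Iigp1, a GTPase that breaks down the vacuoles of intracellular microbes, was at 973 CPM (944 UMIs, 0 to 60 per cell) in anti-CD40 monocytes and 3.16 CPM (2 UMIs, 0 or 1 per cell) in isotype monocytes, a ratio of 308 (85.0 to 2547). It was found in 68 of 74 anti-CD40 members and 2 of 53 isotype members. Thinned to 3000 UMIs per cell, 78.1% of 73 anti-CD40 monocytes (66.9 to 86.9) and 0 of 53 isotype monocytes (exact upper limit 6.72%) had an Iigp1 UMI, against 23.5% of 98 anti-CD40 neutrophils and 0 of 50 isotype neutrophils. Unthinned, the shares in the anti-CD40 library were 91.9% of monocytes (median depth 11048 UMIs) and 28.6% of neutrophils (median depth 3071 UMIs).

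Ly6a, which encodes Sca-1, a surface protein induced by interferons, was at 1451 CPM in anti-CD40 and 19.0 CPM in isotype monocytes, 76.6-fold higher (43.7 to 149). The isotype UMIs of Ly6a sat in 4 cells, the highest with 8 of 12 UMIs. Gbp2, a guanylate-binding protein that attacks microbial membranes, was at 1192 CPM in anti-CD40 and 28.4 CPM in isotype monocytes, 41.9-fold higher (26.4 to 71.0). Cxcl9, the chemokine that attracts T cells through CXCR3, had 382 UMIs in 41 anti-CD40 members (394 CPM) and 0 in isotype members, at least 83.1-fold higher when 3 counts are set in the isotype library. Among anti-CD40 cells Cxcl9 was uneven: the median was 1 UMI, the highest 61, and the top 5 cells held 55.8% of its UMIs. Thinned to 3000 UMIs per cell, 31.5% of 73 anti-CD40 monocytes (21.1 to 43.4) and 0 of 53 isotype monocytes (exact upper limit 6.72%) had a Cxcl9 UMI, against 15.3% of 98 anti-CD40 neutrophils and 0 of 50 isotype neutrophils. Shallower cells were left out of these shares, 1 anti-CD40 monocyte, 0 isotype monocytes, 91 anti-CD40 neutrophils and 37 isotype neutrophils. The unthinned shares were 55.4% of anti-CD40 monocytes at a median of 11048 UMIs and 31.7% of anti-CD40 neutrophils at a median of 3071.

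Serpina3g, an intracellular protease inhibitor, was 26.1-fold higher in anti-CD40 monocytes (537 CPM in anti-CD40 and 20.5 CPM in isotype cells, 15.2 to 49.4). Gbp5, which promotes inflammasome assembly, was 29.5-fold higher (187 CPM in anti-CD40 and 6.32 CPM in isotype cells, 11.3 to 110). Calhm6, a membrane channel gene induced in activated macrophages, was 17.4-fold higher (302 CPM in anti-CD40 and 17.4 CPM in isotype cells, 9.57 to 35.2). The related genes Ly6i, Gbp4, Gbp8 and Serpina3f were higher with them, with log2 ratios of 5.09, 3.87, 3.28 and 3.56. Reads of close family members (Ly6, Gbp, Serpina3) may have been shared between copies, so single members of these families are less certain than the group. Among trimmed members the log2 ratio of Ly6a was 6.63, against 5.66 over all members, and that of Serpina3g 5.23, against 4.16. Socs3 and Pim1, both targets of cytokine signalling, were the lowest of the list, at -0.20 each.

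The other gates gave similar values. In C1q-rich macrophages, where 2.24% of 12107 measured genes were called higher and 2.66% lower, 29 of 35 measured genes of the list were called higher, with a median of 2.59. Iigp1 had a log2 ratio of 6.22 in classical monocytes, 5.99 in macrophages and 6.82 in nonclassical monocytes (38 anti-CD40 and 41 isotype cells), a gate in which 6.75% of 3245 measured genes were called higher and 6.41% lower. Cxcl9 had a log2 ratio of 5.34 in classical monocytes, 6.98 in macrophages and 3.32 in nonclassical monocytes. The cells came from the same pair of libraries, so these are values side by side and not independent observations.

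Promoters were searched for interferon elements in the RefSeq tables (GRCm38.p6, 250 bases before to 50 after the transcript start). The genes looked at were the interferon-gamma response list and the 15 highest. The letters searched were TTCNNNGAA for GAS, the same on both strands, and, for the core of ISRE, GAAA followed by 2 bases of any kind and GAAA again, or its reverse complement with TTTC in both places; the motifs were allowed to overlap each other. Of the 37 interferon-gamma response genes, 24 had a promoter in the table. GAS letters stood in 13 of them, against 9.55% of all 27025 genes with a promoter, and ISRE core letters in 12, against 3.99%. The list was chosen as interferon-gamma response genes, whether or not they were called higher here, so these shares describe the list alone. A match is a description of the sequence and not a measured site. The 4 promoters shown belong to genes among the 15 highest ratios and illustrate 1 or both motifs, with matches in capitals, 5′ to 3′ on the strand of the gene.
Gbp5, chr3:142496684-142496983, plus strand: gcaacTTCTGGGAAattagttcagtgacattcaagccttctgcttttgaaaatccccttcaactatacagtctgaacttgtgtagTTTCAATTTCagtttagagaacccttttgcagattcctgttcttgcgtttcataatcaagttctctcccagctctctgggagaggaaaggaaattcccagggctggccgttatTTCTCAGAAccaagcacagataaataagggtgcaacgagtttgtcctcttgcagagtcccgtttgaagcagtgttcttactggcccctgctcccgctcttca
Gbp2, chr3:142620413-142620712, plus strand: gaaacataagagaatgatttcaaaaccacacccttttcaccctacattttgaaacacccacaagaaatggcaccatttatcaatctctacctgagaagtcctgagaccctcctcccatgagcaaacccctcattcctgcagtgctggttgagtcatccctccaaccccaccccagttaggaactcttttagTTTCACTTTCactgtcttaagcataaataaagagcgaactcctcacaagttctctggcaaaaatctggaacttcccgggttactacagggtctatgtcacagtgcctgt
Serpina3g, chr12:104235897-104236196, plus strand: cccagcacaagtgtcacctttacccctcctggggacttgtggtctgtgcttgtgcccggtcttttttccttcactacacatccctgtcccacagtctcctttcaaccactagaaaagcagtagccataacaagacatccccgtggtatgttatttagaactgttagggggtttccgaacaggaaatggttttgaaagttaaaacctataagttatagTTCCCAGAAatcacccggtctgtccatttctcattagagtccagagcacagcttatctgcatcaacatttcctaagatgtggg
Calhm6, chr10:34127923-34128222, minus strand: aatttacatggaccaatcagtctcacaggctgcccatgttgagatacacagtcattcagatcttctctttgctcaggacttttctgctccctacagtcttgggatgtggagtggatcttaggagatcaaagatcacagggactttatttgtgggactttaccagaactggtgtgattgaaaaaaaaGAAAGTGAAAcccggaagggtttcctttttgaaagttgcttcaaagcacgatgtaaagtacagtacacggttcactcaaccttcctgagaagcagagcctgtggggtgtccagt
In these windows Gbp5 held 2 GAS matches and 1 ISRE core match, Gbp2 and Calhm6 held 1 ISRE core match each, and Serpina3g held 1 GAS match. Serpina3f, also among the 15 highest, held 1 GAS match in each of its windows. No window of Cxcl9, Upp1, Top2a or Lcn2, all among the 15 highest, held either motif.

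**Figure D2:**
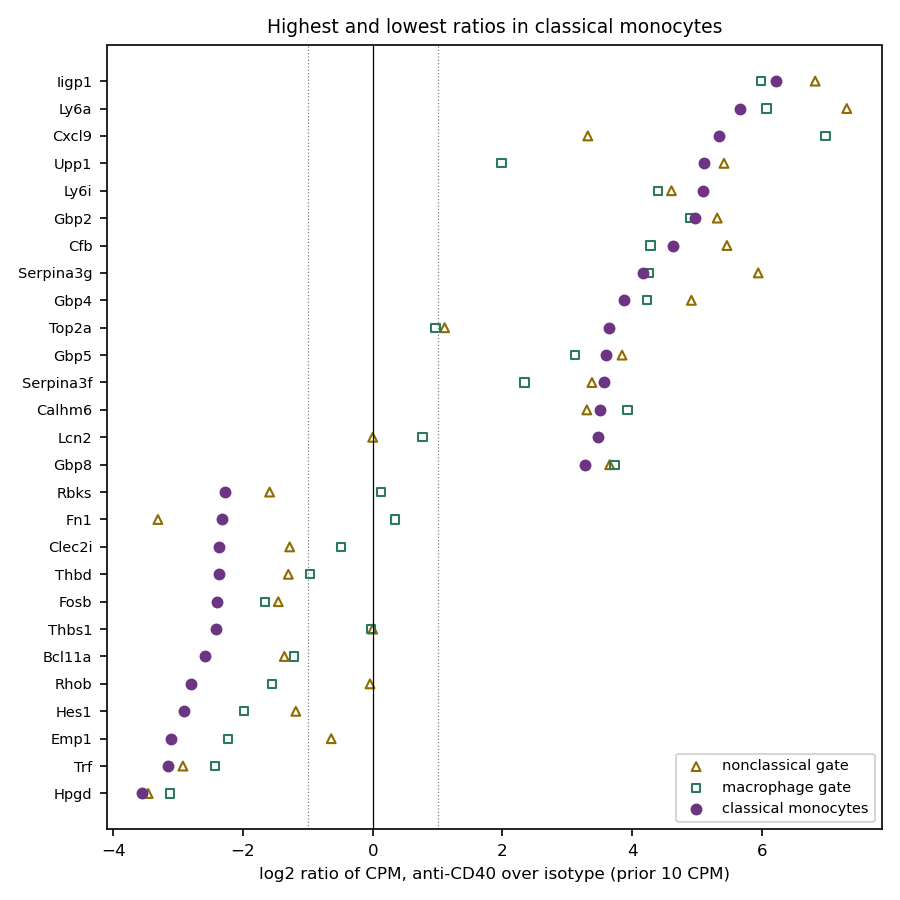
Log2 ratio of CPM (anti-CD40 over isotype, prior 10 CPM) for the 15 highest and 12 lowest genes chosen in classical monocytes (filled circles), with the same gene in macrophages (squares) and nonclassical monocytes (triangles); dotted lines mark 2-fold. Iigp1 and Ly6a lie at 5.66 or more in all 3 cell gates, whereas Upp1, Top2a and Lcn2 have lower ratios in macrophages and Fn1 and Rbks are near 0 there.

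Of 27 measured genes of the type I interferon response, 5 were called higher and 0 lower, with a median of 0.48. The number called higher ran from 2 to 10 over the processing alternatives, and the median reached 1.64 with all exclusion sums at 0, which left 28 anti-CD40 and 10 isotype members. Among trimmed members, where 4.81% of 5465 measured genes were called higher and 5.65% lower, 5 of the list were higher and 1 lower. Zbp1, a sensor of nucleic acids, was 4.55-fold higher in anti-CD40 monocytes (360 CPM in anti-CD40 and 79.0 CPM in isotype cells, 3.38 to 6.26). Ifi44 and Rtp4 had log2 ratios of 1.55 and 1.25. Rsad2, the antiviral protein viperin, was at the other end, with 13.4 CPM in anti-CD40 and 36.3 CPM in isotype monocytes and a log2 ratio of -0.99, which was 0.02 with bounds per 10000 UMIs and 0.96 with all exclusion sums at 0. In macrophages 21 of 28 measured genes of this list were called higher, with a median of 1.52, and Rsad2 had a log2 ratio of 1.89. The difference between the cell gates was not tested.

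Antigen presentation genes were higher in anti-CD40 monocytes. Of 20 MHC class I presentation genes, all measured, 15 were called higher and 0 lower, with a median of 1.27. H2-Q7, a nonclassical class I molecule with near-identical neighbours, was at 433 CPM in anti-CD40 and 71.1 CPM in isotype monocytes, a log2 ratio of 2.45, and 3.40 among trimmed members. Psmb9, an immunoproteasome subunit, was 4.42-fold higher (524 CPM in anti-CD40 and 118 CPM in isotype cells, 3.46 to 5.71). H2-D1, a classical class I heavy chain, had the lowest log2 ratio of the list, 0.30.

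MHC class II genes differed in most cells. H2-Aa, H2-Ab1, H2-Eb1 and Cd74, which form and chaperone the class II molecule, together had 7 to 1341 UMIs per cell (median 155.5) in anti-CD40 members and 1 to 1456 (median 7) in isotype members. At least 30 UMIs of these 4 genes were found in 63 of 74 anti-CD40 members (85.1%, 74.96 to 92.3) and 12 of 53 isotype members (22.6%, 12.3 to 36.2). H2-Eb1 was at 3054 CPM in anti-CD40 and 927 CPM in isotype members, a log2 ratio of 1.71, which was 3.64 among trimmed members. Cd74 was at 10791 CPM in anti-CD40 and 3961 CPM in isotype members, with a log2 ratio of 1.44, and 2.46 among trimmed members. With all exclusion sums at 0 the ratios were 0.45 for H2-Eb1 and 0.60 for Cd74, under 2-fold, and 1 gene of the class II list was called higher. The B cell markers, cells that also carry class II, summed to 145 CPM in anti-CD40 and 477 CPM in isotype members, and their part in the result was not tested.

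Cd209a and Flt3 were the lowest genes of the same list. Of 13 measured genes of the dendritic-like and class II list, 6 were called higher and 3 lower (8 of 11 and 1 among trimmed members). Cd209a, a lectin of monocyte-derived dendritic cells, had 1 UMI in 1 of 74 anti-CD40 members and 145 UMIs in 13 of 53 isotype members, a ratio of 222 in the direction of isotype (39.3 to 8837). Flt3, the growth factor receptor of dendritic cell precursors, was found in 2 anti-CD40 and 14 isotype members. Itgax, the integrin chain CD11c of dendritic cells and activated macrophages, was at 47.4 CPM in anti-CD40 and 22.1 CPM in isotype members, a log2 ratio of 0.84, and 1.27 among trimmed members. Its surface tag was at 4507 tag CPM, scaled to all tag UMIs, in anti-CD40 and 2439 in isotype members, 1.85-fold higher (1.58 to 2.16). Among trimmed members, 0 anti-CD40 and 9 isotype cells had 3 or more Cd209a UMIs. Those 9 isotype cells all lacked Chil3, 7 carried Flt3, and their median was 56 Lyz2 UMIs against 318 in the other 36 trimmed isotype members, while Ccr2 was present in all 9. Their medians were 1 H2-Aa and 3 Cd74 UMIs, against 1 and 4 in the other trimmed isotype members. These 9 cells are part of the isotype group in comparisons over all or trimmed members, but not among the Chil3-rich members described below.

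**Figure D3:**
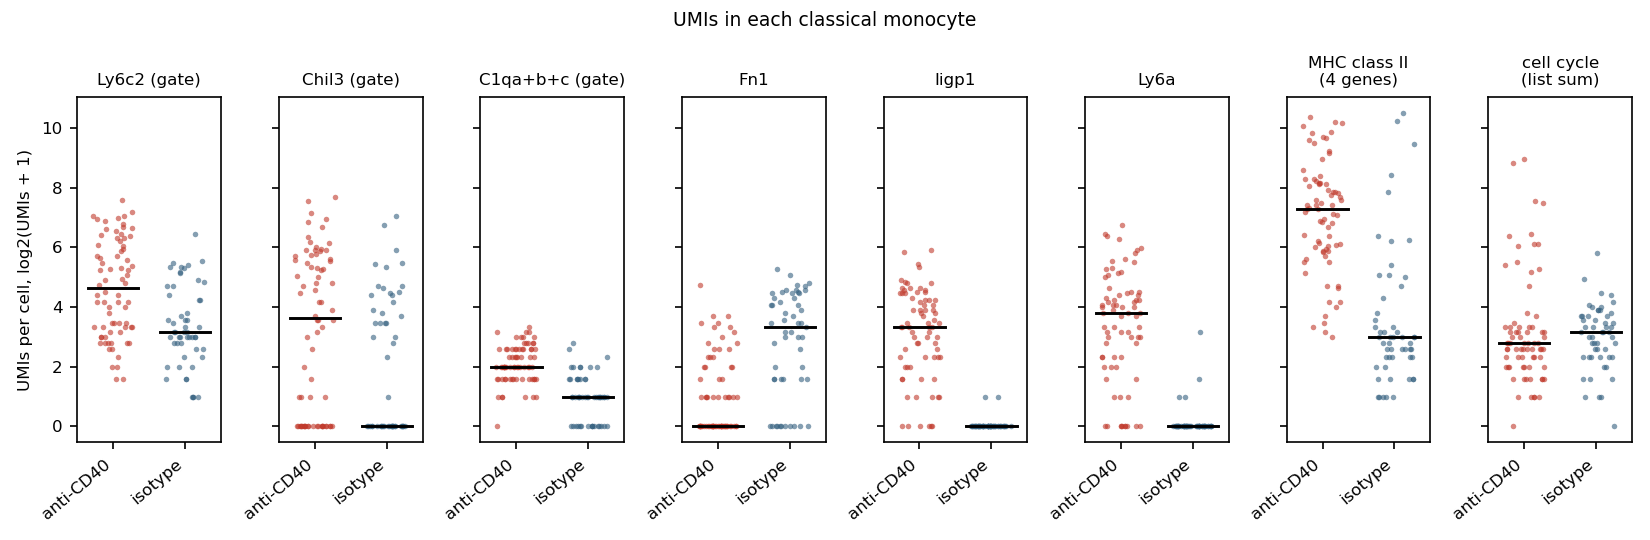
UMIs per cell, as log2(UMIs + 1), for 3 gate readouts and 5 readouts outside the gate in the 74 anti-CD40 and 53 isotype members; each point is 1 cell and bars are medians. Iigp1 and Ly6a are at 0 in nearly all isotype cells, the 4 MHC class II genes have medians of 155.5 UMIs in anti-CD40 and 7 in isotype cells, and the cell cycle sum reaches 496 UMIs in an anti-CD40 cell and 55 in an isotype cell.

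Calgranulins and granule genes were higher, but in few cells. Of 13 measured genes on the neutrophil-like and granule list, 10 were called higher and 1 lower, with a median of 2.67 (3.38 with 5 genes at their bounds). Among trimmed members 6 of 9 were higher and 1 lower. S100a8 and S100a9 encode the 2 chains of calprotectin, an alarmin of neutrophils and newly released monocytes. S100a8 was at 2246 CPM in anti-CD40 and 22.1 CPM in isotype monocytes, 102-fold higher (60.4 to 186). Its median was 2 UMIs in anti-CD40 cells, with a range of 0 to 627, and 0 in isotype cells, with a highest value of 2.

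Neutrophil RNA was also more abundant in other anti-CD40 cells. S100a8 was at 148 CPM in anti-CD40 and 22.2 CPM in isotype macrophages, with a log2 ratio of 2.29 there. Among trimmed members S100a8 stood at 1651 CPM in anti-CD40 and 18.6 CPM in isotype cells. Of the 69 trimmed anti-CD40 members, 15 had 10 or more UMIs and together held 93.8% of S100a8, whereas 0 of 45 isotype members had as many. S100a9 was at 966 CPM in trimmed anti-CD40 and 31.7 CPM in trimmed isotype members. Its ratio to S100a8 in the anti-CD40 library was 0.585 in trimmed monocytes, 1.00 over all members, 1.22 in macrophages and 1.48 in neutrophils. In the isotype library the order was different, with 1.70 in trimmed monocytes (17 S100a9 and 10 S100a8 UMIs), 1.22 in macrophages and 1.20 in neutrophils. The source of this RNA was not tested. Camp, a granule peptide, came from 1 anti-CD40 member alone, and Lcn2, an iron-binding protein, was found in 14 anti-CD40 and 2 isotype members with 56.1% of its anti-CD40 UMIs in 1 cell. The log2 ratio of Lcn2 was 3.47, and 2.66 among trimmed members. Cd177, a neutrophil and monocyte surface protein, was lower, at 25.8 CPM in anti-CD40 and 117 CPM in isotype monocytes, a log2 ratio of -1.83, and -2.64 among trimmed members.

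Upp1, uridine phosphorylase, had 325 UMIs in 43 anti-CD40 members (335 CPM) and 0 in isotype members, at least 70.7-fold higher. Its log2 ratio was 5.11 in classical monocytes and 1.98 in macrophages. Upp1 was also common in anti-CD40 neutrophils, 91.8% of which had a UMI after thinning, against 2.00% of isotype neutrophils; in monocytes the thinned share was 46.6% in the anti-CD40 library and 0 of 53 cells in the isotype library. Cfb, complement factor B, was at 432 CPM in anti-CD40 and 7.90 CPM in isotype monocytes, 54.7-fold higher (23.2 to 169), and its 5 isotype UMIs sat in 1 cell. Fcgr4, an activating Fc receptor for IgG, was 11.4-fold higher (144 CPM in anti-CD40 and 12.6 CPM in isotype cells, 5.64 to 27.0). Of 15 measured Fc and complement genes 2 were called higher and 2 lower, beside 4.28% and 4.95% of all measured genes. The lowest was Fcgrt, which recycles IgG, at -1.73.

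The genes that define classical monocytes moved in both directions. Of the 24 outside the gate, all measured, 2 were called higher and 4 lower, with a median of -0.19. Of all measured genes 4.28% were called higher and 4.95% lower. Plac8 was 2.61-fold higher in anti-CD40 monocytes (3557 CPM in anti-CD40 and 1362 CPM in isotype cells, 2.42 to 2.82), and Trem3 6.42-fold higher (60.8 CPM in anti-CD40 and 9.48 CPM in isotype cells, 2.78 to 18.2). Fn1, fibronectin, was lower: it had a median of 0 UMIs in anti-CD40 members (0 to 26) and 9 in isotype members (0 to 38), or 176 and 921 CPM, 5.23-fold lower (4.40 to 6.23). Thbs1, Sirpb1c and Ifitm6 were the other 3 called lower, with log2 ratios of -2.42, -1.33 and -1.30, and Thbs1 was found in 3 anti-CD40 and 6 isotype cells.

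Ccr2, the receptor for monocyte chemoattractant chemokines, was at 531 CPM in anti-CD40 monocytes (486 to 579) and 992 CPM in isotype monocytes (916 to 1073), 1.87-fold lower (1.66 to 2.10). It was detected in 69 of 74 anti-CD40 and 51 of 53 isotype members. F13a1 and S100a4 had log2 ratios of -0.90 and -0.58. Hp, Ms4a4c and Klra2 had log2 ratios of 0.46, 0.89 and 0.50. Lyz2, Itgam, Gsr, Emb and Clec4e lay between -0.68 and -0.39. S100a6, S100a10, Ms4a6c, Mgst1, Cd14 and Lgals3 lay between 0.02 and 0.12.

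Receptors for adhesion and migration were mostly within 2-fold: of 23 measured genes 2 were called higher and 2 lower. The shares over all measured genes were 4.28% and 4.95%. Among trimmed members 4 of the list were higher. Cx3cr1, the fractalkine receptor of patrolling monocytes, was 4.78-fold lower in anti-CD40 monocytes (69.1 CPM in anti-CD40 and 330.2 CPM in isotype cells, 3.61 to 6.39). Cxcr4, which retains leukocytes in bone marrow, had a log2 ratio of -1.92. Icam1, a ligand for leukocyte integrins, was 2.78-fold higher (136 CPM in anti-CD40 and 49.0 CPM in isotype cells, 1.87 to 4.25).

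Of 12 measured chemokines 4 were called higher and 3 lower, with a median of -0.36 (0.30 among trimmed members). Besides Cxcl9, the highest were Ccl12, a CCR2 ligand of the mouse, at 2.28 and Cxcl16, a ligand for CXCR6 on T cells, at 2.10. Ccl6 and Ccl9, constitutive myeloid chemokines of the mouse, were the lowest. Ccl6 was at 316 CPM in anti-CD40 and 1239 CPM in isotype monocytes, 3.91-fold lower (3.43 to 4.48), and Ccl9 was at 167 CPM in anti-CD40 and 458 CPM in isotype monocytes. Among 19 cytokine and receptor genes 0 were called higher and 4 lower, led by Il17ra, a subunit of the interleukin-17 receptor, at -1.76. Il1b, interleukin-1 beta, was at 290 CPM in anti-CD40 and 147 CPM in isotype monocytes, a log2 ratio of 0.93, which was -0.45 with Chil3 and Vcan alone in the gate and -1.04 in Chil3-rich members.

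CD40 signalling genes differed little in RNA. Of 22 measured genes 2 were called higher and 0 lower, beside 4.28% and 4.95% of all measured genes, with a median of 0.11. Cd40 itself was at 49.5 CPM (48 UMIs in 27 members) in anti-CD40 and 23.7 CPM (15 UMIs in 9 members) in isotype monocytes, 2.09-fold higher (1.15 to 4.01) and at 0.82 on the log2 scale with the prior. Traf1, a signalling adaptor induced by NF-kB, was 4.44-fold higher (105 CPM in anti-CD40 and 23.7 CPM in isotype cells, 2.57 to 8.22). Bcl2a1d, a survival factor with near-identical copies, had 60 UMIs in anti-CD40 members and 0 in isotype members, at least 13.05-fold higher. On the interleukin-12 and interferon-gamma list, 2 of 12 were called higher: Il27, a cytokine subunit, at 1.60 and Il15ra, which presents interleukin-15, at 1.39. Ifngr1, a chain of the interferon-gamma receptor, had a log2 ratio of -0.91.

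Cell cycle genes were called higher as a group, yet their UMIs were held by a small number of cells. Of 20 measured genes 13 were called higher and 0 lower, with a median of 2.18 (2.42 with 6 genes at their bounds). Among trimmed members 10 of 17 were higher, with a median of 1.69. Top2a, a DNA topoisomerase of dividing cells, had 111 UMIs in 13 anti-CD40 members and 0 in isotype members, and 50.5% of them lay in 1 cell. The whole list had a median of 6 UMIs per cell (0 to 496) in anti-CD40 and 8 (0 to 55) in isotype members. The top 5 anti-CD40 cells held 64.4% of its UMIs, and the cell with 496 was 1 of the 4 with NK markers. Among trimmed members 12 of 69 anti-CD40 cells (17.4%, 9.32 to 28.4) and 2 of 45 isotype cells (4.44%, 0.543 to 15.1) had 25 or more UMIs of the list; the intervals overlap.

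Glycolysis genes tended to be higher and early response genes lower. Of 17 measured glycolysis genes 8 were called higher and 2 lower, with a median of 0.94. Gapdh was 2.73-fold higher (2915 CPM in anti-CD40 and 1068 CPM in isotype cells, 2.51 to 2.97) and Tpi1 2.94-fold higher (380 CPM in anti-CD40 and 130 CPM in isotype cells, 2.31 to 3.78). The kinases Hk2 and Pfkfb3 were the 2 called lower, at -1.28 and -1.45. Of 25 oxidative phosphorylation genes 0 were called in either direction, with a median of 0.47 and a range of -0.27 for Sdha to 0.93 for Cox7a2.

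Of 22 measured dissociation and immediate early genes 16 were called lower and 0 higher, with a median of -1.24. These genes respond within minutes to stimulation and to enzymatic digestion of tissue. Fosb, an AP-1 subunit, was at 135 CPM in anti-CD40 and 755 CPM in isotype monocytes, 5.59-fold lower (4.60 to 6.84), and Hspa1b, a heat shock protein, was 4.60-fold lower (374 CPM in anti-CD40 and 1721 CPM in isotype cells, 4.08 to 5.19). Macrophages showed 14 of 24 lower with a median of -1.19. The part of sample handling in these values was not tested.

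Further genes were lower in anti-CD40 monocytes. Hpgd, which degrades prostaglandins, was found in 3 of 74 anti-CD40 and 32 of 53 isotype members, 23.3-fold lower (9.28 CPM in anti-CD40 and 216 CPM in isotype cells, 11.9 to 52.1). Trf, transferrin, was 11.6-fold lower (29.9 CPM in anti-CD40 and 346 CPM in isotype cells, 7.84 to 17.7), and Rhob, a small GTPase, 7.70-fold lower (80.4 CPM in anti-CD40 and 619 CPM in isotype cells, 6.03 to 9.95). Emp1, Hes1, Bcl11a, Thbd, Clec2i and Rbks had log2 ratios between -3.10 and -2.28; Emp1 rested on 8 isotype cells.

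Of 29 monocyte transcription factors 1 was called higher and 7 lower. The 1 was Batf2, an interferon-inducible partner of IRF1, with 46 UMIs in 28 anti-CD40 members and 0 in isotype members. Cebpa, a factor of myeloid commitment, was 4.68-fold lower (38.1 CPM in anti-CD40 and 179 CPM in isotype cells, 3.20 to 6.98), and Runx2 had a log2 ratio of -1.99. Maturation genes of macrophages were mixed, with 3 of 21 called higher and 5 lower (5 and 6 among trimmed members): Fcgr4, Mmp14, a matrix protease, and Pltp, a lipid transfer protein, were highest, and Cd63, a lysosomal membrane protein, was at -1.82. Mmp12, the lowest, rested on 1 isotype cell with 40 UMIs.

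The remaining lists are given beside 4.28% called higher and 4.95% called lower of all measured genes. Of 9 measured resident macrophage genes 0 were called higher and 3 lower, Hpgd and Clec10a among them, and 2 of 7 were lower among trimmed members, where Clec10a had a log2 ratio of -0.98, against -1.80 over all members. Pattern recognition had 2 of 16 higher, Clec4n, the lectin Dectin-2, and Pycard, the inflammasome adaptor ASC, at 2.14 and 1.18; among trimmed members 3 of 15 were higher and 2 lower. Antimicrobial effectors had 4 of 19 higher, led by Acod1, which makes itaconate, with 53 UMIs in 17 anti-CD40 members and 0 in isotype members. Of 9 suppressive and checkpoint genes 1 was higher: Cd274, which encodes the checkpoint ligand PD-L1, had 60 UMIs in 36 anti-CD40 members and 2 in 2 isotype members. Of the 3 measured Ly6 family genes, Ly6a and Ly6i were called higher and Ly6e was 1.77-fold higher (2104 CPM in anti-CD40 and 1187 CPM in isotype cells, 1.63 to 1.93).

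**Figure D4:**
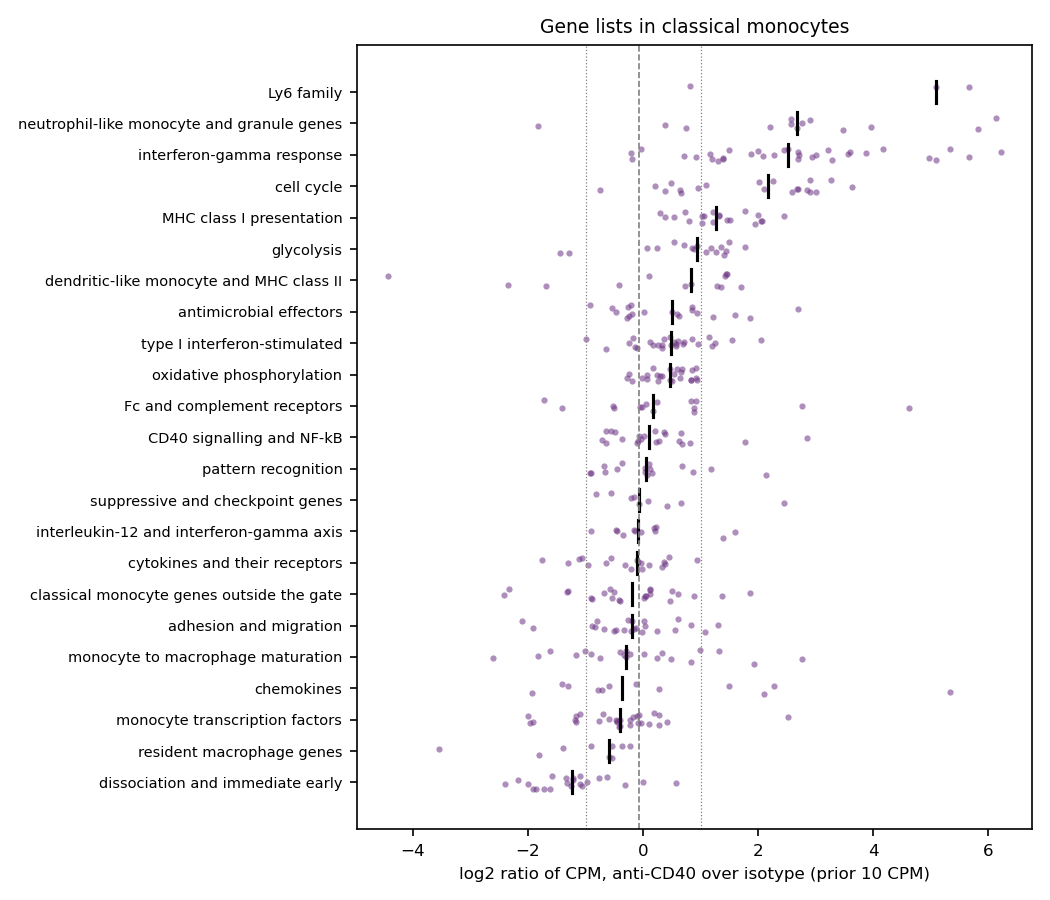
Log2 ratio of CPM (anti-CD40 over isotype, prior 10 CPM) of each measured gene in 23 lists; black bars are list medians, the dashed line is the median of all measured genes (-0.08) and dotted lines mark 2-fold. The interferon-gamma list has a median of 2.52 and the dissociation and immediate early list one of -1.24.

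The antibody tags are a second readout of the same cells that the gate did not use. They are given as tag CPM, the UMIs of a tag for each 1000000 tag UMIs of the members, of which there were 147339 in the anti-CD40 and 90625 in the isotype library. Of 189 antibodies, 166 exceeded the highest of 9 control antibodies in either library (190.04 tag CPM in anti-CD40 and 121 in isotype members). Among these, 19 (11.4%) were called higher in anti-CD40 monocytes and 33 (19.9%) lower, at 2-fold with a prior of 100 tag CPM.

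Surface proteins followed several of the transcripts. Sca-1, the product of Ly6a, was at 30386 tag CPM in anti-CD40 and 2251 in isotype monocytes, 13.5-fold higher (11.7 to 15.6). CD274 was at 9834 tag CPM in anti-CD40 and 861 in isotype monocytes, 11.4-fold higher (9.10 to 14.5; 10208 in trimmed anti-CD40 and 499 in trimmed isotype members), and CD54, the product of Icam1, at 74624 tag CPM in anti-CD40 and 12248 in isotype monocytes, 6.09-fold higher (5.73 to 6.49). LAMP-1, a lysosomal membrane protein that reaches the surface on exocytosis, was 4.82-fold higher (9583 tag CPM in anti-CD40 and 1986 tag CPM in isotype cells, 4.13 to 5.67). CD40 was 2.32-fold higher (5070 tag CPM in anti-CD40 and 2185 tag CPM in isotype cells, 1.98 to 2.73), and the costimulatory protein CD86 1.59-fold higher (7995 tag CPM in anti-CD40 and 5021 tag CPM in isotype cells, 1.43 to 1.78).

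Tags for Ly-6C, CX3CR1 and CCR2 were lower. Ly-6C was at 10466 tag CPM in anti-CD40 monocytes and 13495 in isotype monocytes, 1.29-fold lower (1.20 to 1.39). Its log2 ratio of -0.36 was 0.26 with all exclusion sums at 0. Its transcript Ly6c2, a gate gene, went the other way, at 3236 CPM in anti-CD40 and 1261 CPM in isotype members. CX3CR1 was 2.21-fold lower (1310 tag CPM in anti-CD40 and 2891 tag CPM in isotype cells, 1.83 to 2.67) and CCR2 1.65-fold lower (781 tag CPM in anti-CD40 and 1291 tag CPM in isotype cells, 1.27 to 2.16), in the direction of their transcripts.

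CD11b was at 63955 tag CPM in anti-CD40 and 79172 in isotype monocytes, CD49d at 20918 in anti-CD40 and 26924 in isotype monocytes, CD14 at 3855 in anti-CD40 and 5793 in isotype monocytes, and CD44 at 30976 in anti-CD40 and 33699 in isotype monocytes. CD16/32 and CD43 differed by less than counting error. CD115, the product of Csf1r, was low, at 204 tag CPM in anti-CD40 and 320.0 in isotype monocytes. The panel holds 2 antibodies for the macrophage protein F4/80: the brighter was at 81167 tag CPM in anti-CD40 and 57898 in isotype monocytes, against 243877 in anti-CD40 and 215951 in isotype macrophages, and the dimmer at 353 tag CPM in anti-CD40 and 574 in isotype monocytes. The median per cell of the brighter was 49.5 UMIs in anti-CD40 and 11 in isotype members, and 26.1% of its isotype UMIs were on 1 cell. Its log2 ratio was 0.49, and -0.01 with Chil3 and Vcan alone in the gate.

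Some tags came from few cells or from other cells. CD90.2, a protein of T and innate lymphoid cells, was at 6387 tag CPM in anti-CD40 and 1170 in isotype members, but 58.2% of its anti-CD40 UMIs were on 1 cell, and trimmed members had 1106 tag CPM in the anti-CD40 and 356 in the isotype library. CD49b, an NK cell integrin, was at 929.8 tag CPM in anti-CD40 and 9434 in isotype members, and at 232 in trimmed anti-CD40 and 456 in trimmed isotype members. Ep-CAM was higher through 1 anti-CD40 cell with 81.1% of its UMIs. IgD, CD79b, CD55 and B220, proteins found on B cells, were among the other lowest tags. IgD was at 54.3 tag CPM in anti-CD40 and 8971 in isotype members, and at 89.6 tag CPM in anti-CD40 and 11475 in isotype macrophages. The order was the same on both kinds of cell, and the part of B cell protein in other tags was not tested.

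**Figure D5:**
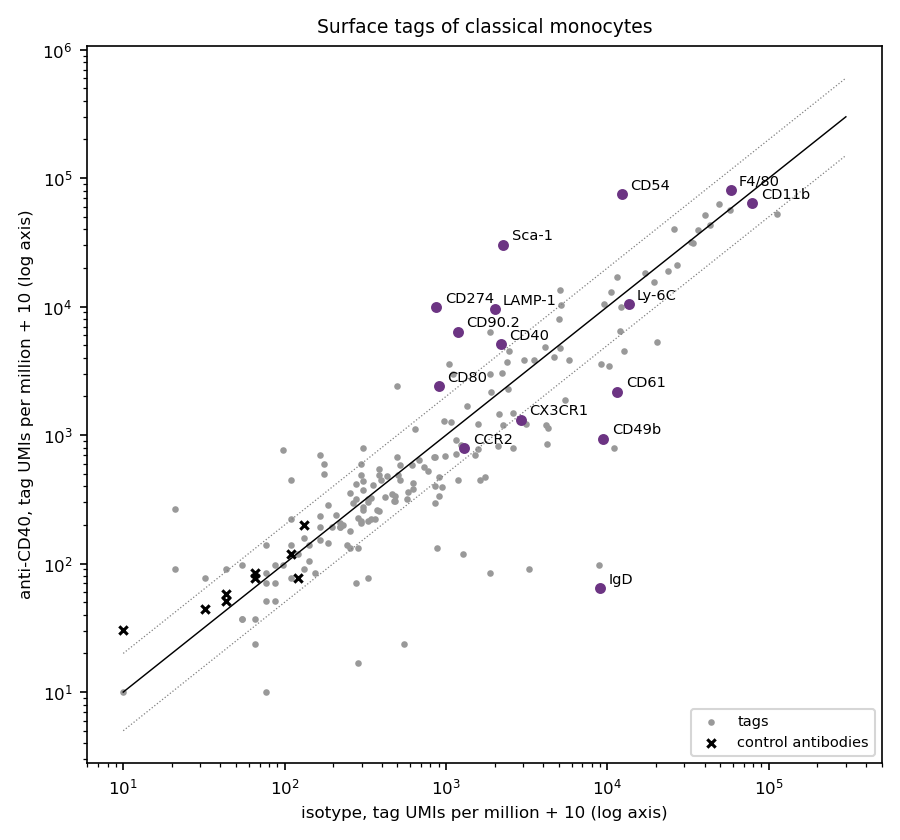
Antibody tag CPM in anti-CD40 members (vertical) against isotype members (horizontal), each with 10 added, on log axes; grey points are tags, crosses are control antibodies, the solid line is equality and dotted lines mark 2-fold. Sca-1, CD274 and CD54 lie above the lines, and CD49b and IgD below.

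Members also differed among themselves in Chil3, which is a gate gene. Cells with little Chil3 met the marker bound mainly through Ly6c2 and Vcan, so the gate itself admitted the classes below in different ways. Trimmed members with 10 or more Chil3 UMIs (38 anti-CD40 and 20 isotype cells) were set beside those with 0 or 1 (25 anti-CD40 and 21 isotype cells), a split chosen after the values were seen, so values are described and not tested. Median depths were 11351.5 UMIs in Chil3-rich and 13245 in Chil3-poor anti-CD40 cells, and 10007.5 in Chil3-rich and 13463 in Chil3-poor isotype cells. In the anti-CD40 library the Chil3-rich cells had more Hp (989 against 363 CPM), Fn1 (275 against 104 CPM) and Mgst1 (569 against 122 CPM). Prtn3, proteinase 3 of early myeloid cells, was at 271 against 50.5 CPM, and S100a8 at 2884 against 107 CPM. The Chil3-poor cells had more H2-Eb1 (5939 against 1375 CPM) and Cx3cr1 (98.1 against 30.8 CPM).

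Surface tags also differed between these Chil3 classes, with the same limit. In anti-CD40 members Ly-6C was at 16021 tag CPM in Chil3-rich and 5968 in Chil3-poor cells, and CD11b at 91530 in Chil3-rich and 41218 in Chil3-poor cells. The brighter F4/80 antibody was at 45321 tag CPM in Chil3-rich and 108624 in Chil3-poor cells, and CD11c, an integrin of dendritic cells and activated macrophages, at 1133 in Chil3-rich and 9026 in Chil3-poor cells. Sca-1 was at 16588 tag CPM in Chil3-rich and 43924 in Chil3-poor cells, and CD274 at 5820 in Chil3-rich and 13122 in Chil3-poor cells.

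Isotype cells did not show the whole pattern. Hp (746 against 436 CPM) and Fn1 (1568 against 844 CPM) were again higher in Chil3-rich cells, but Plac8 (1563 against 1559 CPM) was nearly equal. F4/80 was at 57840 tag CPM in Chil3-rich and 27008 in Chil3-poor isotype cells, the opposite order from the anti-CD40 library, and the 9 Cd209a-bearing cells fall among the Chil3-poor. In both Chil3 classes Iigp1 and Gbp2 were higher in the anti-CD40 library: Gbp2 was at 1671 CPM in anti-CD40 and 40.6 CPM in isotype Chil3-rich cells, and at 716 CPM in anti-CD40 and 27.9 CPM in isotype Chil3-poor cells. H2-Eb1 was at 1375 CPM in anti-CD40 and 239 CPM in isotype Chil3-rich cells, and at 5939 CPM in anti-CD40 and 317 CPM in isotype Chil3-poor cells.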

How the data were processed

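Transcripts and antibody tags were measured in 2 libraries, each a pool of 4 hearts. Raw UMI counts, whole numbers with no normalization, were deposited for 32285 genes and 198 tags, made with Cell Ranger 6.0.1 per the file headers; the submitters' processing notes name Cell Ranger 3, Seurat 3, mm10 and GRCh38 without their roles. The aligner's settings are not given in the sources used here. The feature names include TotalSeq tags, and the labels' protocols name a 5′ kit. A barcode was kept at 200 genes or more and below 10% mitochondrial UMIs, and no doublet caller was run.

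Counts were summed over members per library and scaled to CPM with numpy 2.4.6 and scipy 1.17.1. Intervals are Clopper-Pearson (shares), Poisson (levels) and conditional binomial (ratios), at 95%, for counting error only. A gene at 0 is given a bound with 3 counts over that library. Comparison gates were macrophages (Csf1r, 10 or more C1q UMIs, no bound on the 3 markers), nonclassical monocytes (3 or more UMIs of Ace, Ear2, Treml4 and Cd300e, at most 4 of the 3 markers) and neutrophils (5 or more UMIs of Csf3r and Retnlg, no Csf1r). The other bounds of the monocyte rule were kept for macrophages and nonclassical monocytes. Neutrophils kept its C1q, T and B cell bounds, so they too had at most 9 C1q UMIs. They had no bound on the nonclassical genes or the 3 markers. Named genes were the 15 highest and 12 lowest ratios with at least 30 UMIs and a UMI in 10% of members in the higher library, passing over gate genes, markers of other classes, sex-linked genes, gene models without a name, and genes of mitochondria, ribosomes, haemoglobin and antigen receptor segments, plus all classical monocyte genes outside the gate and the 3 highest and 2 lowest of each list. Named tags were a panel of monocyte and activation proteins with the 6 highest and 6 lowest ratios. The ratio functions were tested on simulated data. Alternatives included TMM scaling with edgeR 4.0.16, other gate bounds, other priors, no minimum count and thinning to 3000 UMIs. The members and lists were chosen with earlier results of these data known. Some genes and tags are not reported here.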

Additional observations from a re-analysis of the deposited data

Results flagged for a closer look

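Sirpb1c, a signal-regulatory receptor of myeloid cells, was lower in anti-CD40 than in isotype classical monocytes (log2 ratio -1.33, 76.3 CPM in anti-CD40 and 207 CPM in isotype cells) and higher in anti-CD40 than in isotype C1q-rich macrophages (1.29, 46.9 CPM in anti-CD40 and 13.3 CPM in isotype cells). Of the named genes outside the gate, it was the only 1 whose ratio passed 2-fold in monocytes and 1.5-fold in the opposite direction in macrophages. The macrophage gate also held cells with monocyte markers, mostly in the anti-CD40 library. The difference between the cell types was not tested.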

How the results depend on the processing

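No paired analysis was possible because each group is 1 library and the result comes from no test. The share of monocytes was 1.73% in anti-CD40 and 2.07% in isotype barcodes; it was 2.24% and 3.34% with 500 genes and 5% mitochondrial UMIs, 1.15% and 1.09% with Chil3 and Vcan alone, and 0.655% and 0.391% with all exclusion sums at 0. With a C1q bound of 3 the shares were 0.958% in anti-CD40 and 1.95% in isotype barcodes, with cells thinned before the gate the anti-CD40 share was 1.195%, and with bounds per 10000 UMIs the isotype share was 1.52%. The 255 genes called higher became 164 with members thinned to 3000 UMIs and 118 with a prior of 50 CPM. The 295 called lower became 122 and 81 under these, 136 with all exclusion sums at 0, 443 with no minimum and 517 with a prior of 1 CPM. Of 13 cell cycle genes called higher, the count was 5 with a C1q bound of 3, 8 with bounds per 10000 UMIs, 8 with cells thinned before the gate, 0 with members thinned, 4 with all exclusion sums at 0 and 22 with no minimum. The counts of interferon-gamma genes called higher, early response genes called lower and tags called in either direction stayed within 1.5 times under all alternatives run. Type I interferon genes called higher ran from 2 to 10, and genes of the dendritic-like and class II list from 1 to 8. Of ratios past 2-fold, those reversed were Il15ra with members thinned (-0.19), Pltp with Chil3 and Vcan alone (-0.26), Mmp12 with cells thinned before the gate (0.49) and in Chil3-rich members (0.45), CD90.2 with bounds per 10000 UMIs (-0.43), and Ep-CAM with Chil3 and Vcan alone (-0.48), with cells thinned before the gate (-0.96) and with all exclusion sums at 0 (-0.41). Ratios under 2-fold that also changed sign included Il1b (-0.45 with Chil3 and Vcan alone, -1.04 in Chil3-rich members), Klra2 (-0.04 in Chil3-rich members), Rsad2 (0.02 with bounds per 10000 UMIs), and, with all exclusion sums at 0, Rsad2 (0.96), Socs3 (0.82), Pim1 (0.80), Emb (0.15), Lyz2 (0.12) and the tags Ly-6C (0.26), CD86 (-0.17) and the brighter F4/80 (-0.01). CD115 reached 0.76 with cells thinned before the gate. Thinning before the gate left 40 anti-CD40 and 34 isotype members, and all exclusion sums at 0 left 28 anti-CD40 and 10 isotype members. The causes were not tested. The alternatives without NK, Siglech or granule UMIs and with Chil3-rich members alone were chosen after seeing the data.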
